A study of Mus musculus with 9 samples.

Results

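The enzymes that attach glutathione, glucuronate or sulfate to small molecules were represented by 66 of the 21944 genes in the deposited table. They were chosen by symbol alone, as every gene whose name starts with Gst, Mgst, Ugt or Sult, followed by at most 1 lower-case letter and then a digit. The set held 24 glutathione transferases (3 of them the microsomal Mgst enzymes), 22 UDP-glucuronosyltransferases and 20 sulfotransferases. No measured value entered the choice. All 66 genes matched a locus of the GENCODE annotation.

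The study sequenced RNA from 9 mouse tumour samples, 3 in each of 3 groups, to follow the part of RHAMMB in the spread of pancreatic neuroendocrine tumours. The first group held subcutaneous tumours grown from N134, a cell line derived from a mouse pancreatic neuroendocrine tumour (N134 tumours 1, 2 and 3). The second held subcutaneous tumours grown from N134-RHAMMB, the line that carries RHAMMB, a form of the hyaluronan receptor RHAMM (called RHAMMB tumours 1, 2 and 4 below). The last held liver metastases of N134-RHAMMB (metastases 1, 2 and 3). All hosts were NSG mice (NOD.Cg-PrkdcscidIl2rgtm1Wjl/SzJ), which have no mature B, T or natural killer cells and keep their macrophages. Cells were given under the skin or through the tail vein, so the site of growth and the route of injection cannot be told apart between tumours and metastases. There were no liver metastases of N134 itself and no samples of liver without tumour among these 9 libraries. Tumour cells and host are both mouse, so their transcripts cannot be told apart by sequence. The labels do not give the sex or age of the hosts, whether a line is 1 clone, or whether replicates came from separate animals. The p-values thus reflect the spread among these samples alone, and that spread may be technical.

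Conjugation is the second phase of detoxification. Glutathione transferases join the tripeptide glutathione to reactive electrophiles. Glucuronosyltransferases move glucuronate from UDP-glucuronate onto steroids, bilirubin and drugs, and sulfotransferases move sulfate from the donor PAPS onto phenols, steroids and bile acids. Hepatocytes are the body's main site of all these reactions, and the conjugates leave the cell through export pumps into bile or blood. Many of the genes lie in clusters of tandem copies, and the UGT1 genes share their downstream exons, so that each has its own start and first exon only.

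Levels are given in FPKM, fragments counted per kilobase of transcript and per M (mega) of fragments mapped, which allows levels to be compared between genes. Estimated depth was 14.5 to 18.3 M fragments per library, and 12057 to 12542 genes reached 1 FPKM. Hmmr, the mouse gene for RHAMM, was measured at 44.9, 39.2 and 42.7 FPKM in the N134 tumours, 50.2, 51.3 and 49.2 FPKM in RHAMMB tumours and 36.0, 40.0 and 43.3 FPKM in metastases. Of 18 islet and neuroendocrine markers, summed levels were 39543 to 43582 FPKM in the N134 tumours, 33801 to 39525 in RHAMMB tumours and 45277 to 50407 in metastases, and none was listed at 0 throughout a group. RHAMMB tumours 2 and 4 also held transcripts of skeletal muscle: Ckm, the muscle creatine kinase, was at 10.2 and 16.0 FPKM there and at most at 0.0582 in the other 7 libraries.

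The stretch directly upstream of a gene's start is shown for 4 members. Gsta3 (chr1:21240335-21240584) had the only match, among the motifs reported here, in a stretch free of annotated exons. Ugt1a9 (chr1:88070529-88070778), Ugt1a6a (chr1:88134559-88134808) and Ugt1a1 (chr1:88211709-88211958) are 3 starts of the UGT1 locus, whose levels are set apart below, and the start is where these genes differ. Each is the 250 bases before the RefSeq start in GRCm38.p6, on the plus strand, with no annotated exon inside, written 5′ to 3′ along the gene. Capitals mark matches to TGACNNNGC, the core of the antioxidant response element bound by NRF2, searched on both strands; the 3 UGT1 stretches hold none and are in lower case throughout.
Gsta3: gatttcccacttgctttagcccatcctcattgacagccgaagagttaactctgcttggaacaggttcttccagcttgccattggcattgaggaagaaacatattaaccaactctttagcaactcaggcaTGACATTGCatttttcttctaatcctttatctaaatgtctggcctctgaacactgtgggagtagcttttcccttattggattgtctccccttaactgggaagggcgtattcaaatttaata
Ugt1a9: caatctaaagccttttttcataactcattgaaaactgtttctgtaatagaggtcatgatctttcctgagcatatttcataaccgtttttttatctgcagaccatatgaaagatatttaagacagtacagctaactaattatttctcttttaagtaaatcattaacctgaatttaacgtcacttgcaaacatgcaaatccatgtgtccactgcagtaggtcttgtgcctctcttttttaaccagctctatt
Ugt1a6a: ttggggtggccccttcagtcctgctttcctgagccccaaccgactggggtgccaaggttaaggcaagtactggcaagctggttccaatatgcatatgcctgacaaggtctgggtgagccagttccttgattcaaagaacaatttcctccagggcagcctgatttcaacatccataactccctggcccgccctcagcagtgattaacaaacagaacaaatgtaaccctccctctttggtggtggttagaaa
Ugt1a1: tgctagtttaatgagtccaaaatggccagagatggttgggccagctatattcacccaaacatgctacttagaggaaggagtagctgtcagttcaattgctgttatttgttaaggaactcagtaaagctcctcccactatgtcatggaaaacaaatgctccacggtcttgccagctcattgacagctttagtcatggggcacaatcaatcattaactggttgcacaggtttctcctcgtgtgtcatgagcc

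RefSeq gave 70 promoters for 58 of the 66 members. The antioxidant core TGACNNNGC stood in 4 of them (5.71%), those of Gsta3, Gstm5, Gstm7 and Mgst1, beside 10.2% of all 32851 promoters of that length. TTGCGTG, a core bound by the aryl hydrocarbon receptor, stood in 1 member promoter (Sult1d1) and in 0.925% of all, and the direct repeat of AGGTCA after 1 free letter, read by several nuclear receptors, in 0 of the 70 and in 11 of all. A match in these letters is a description and not a binding site.

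Subcutaneous tumours of both kinds expressed a small part of the set, and liver metastases a much larger part. Of the 66 genes, 19 to 21 reached 1 FPKM in each subcutaneous tumour and 36 to 42 in each metastasis. The summed level of the set was 349 ± 8.65 FPKM (SD, n = 3) in N134 tumours, 388 ± 36.2 in RHAMMB tumours and 1831 ± 177 in metastases. That is 0.0762% to 0.0941% of all FPKM in the 6 subcutaneous tumours and 0.366% to 0.424% in the 3 metastases. The leading gene differed as well: Gstz1, which breaks down tyrosine by way of maleylacetoacetate, made up 21.2% to 29.2% of the sum in each subcutaneous tumour, and Gstm1, a cytosolic mu class transferase, 31.5% to 34.7% in each metastasis.

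**Figure D1:**
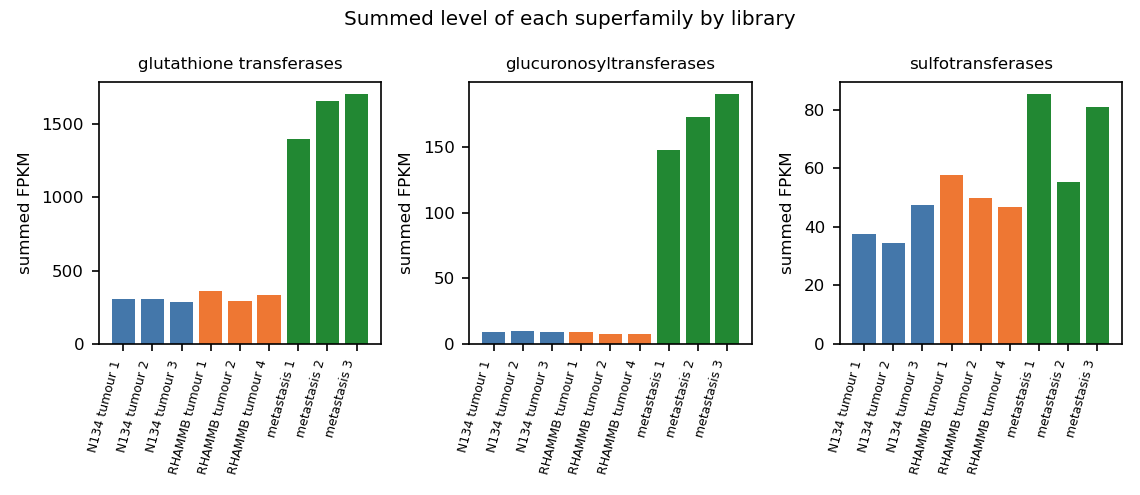
Summed FPKM of the 24 glutathione transferases, 22 glucuronosyltransferases and 20 sulfotransferases, 1 bar per library, on a linear axis from 0 in each panel. Glucuronosyltransferases lie at 7.25 to 9.71 FPKM in the 6 subcutaneous tumours and at 148 to 190 in the 3 metastases, while the lowest metastasis for sulfotransferases (55.4 FPKM) lies below the highest subcutaneous tumour (57.8 FPKM).

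For the test, 40 of the 66 genes reached 1 FPKM in at least 3 libraries, the condition for entering the fit. 16 of these passed only through the metastases, so they had to differ between metastases and tumours, and the other 24 reached that level in at least 1 subcutaneous tumour. Counts and medians over the 40 carry this selection and do not describe all 66. In metastases against RHAMMB tumours, 26 of the 40 were higher and 0 lower (limma, adjusted p below 0.05), where 6.56% of all 12854 genes were called, 5.04% higher and 1.52% lower. Of all calls in that comparison 76.9% were higher. Under alternatives described below, this share was 66.7% after quantile normalization, 52% with library weights and 87.3% with a replicate block. In metastases against N134 tumours, 28 were higher and 0 lower, where 9.93% of all genes were called, 5.69% higher and 4.23% lower. These comparisons share the metastases, and the 26 genes of the first were all among the 28 of the second, the others being Gstp1 and Sult4a1. Among the 24 genes that reached 1 FPKM in a subcutaneous tumour, 10 and 12 were higher. At an unadjusted p below 0.05 limma called 30 and 31 of the 40, where 16.7% and 21.4% of all genes reached that threshold, with 0 lower in the first comparison and 1, Ugt1a7c (-0.59, adjusted p = 0.18), in the second. The median log2 difference over the 40 was 2.17 and 1.87, beside -0.06 and -0.03 over all genes tested. The 3 values of each group did not overlap for 30 of the 40 in either comparison, where 19.8% and 25.7% of all genes did not overlap. Differences here and below are on the log2(FPKM + 1) scale, where low genes show less than their true change.

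Hepatocyte transcripts moved with these genes. All 22 hepatocyte markers on the list used here were higher in metastases in both comparisons, 12 of them entering the test through the metastases alone, with a summed level of 25.1 to 28.3 FPKM in the N134 tumours, 29.2 to 36.6 in RHAMMB tumours and 4962 to 5354 in metastases. Albumin (Alb) stood at 1504, 1410 and 1609 FPKM in metastases 1, 2 and 3 and at 0.481 to 1.6 in the 6 subcutaneous tumours. Of the markers of other liver cells, those higher in metastases were 3 of 6 tested cholangiocyte markers (summed over 12 genes, 52.5 to 74.2 FPKM in tumours and 151 to 199 in metastases), 3 of 13 endothelial markers, those of liver sinusoids (Clec4g, Stab2 and Oit3, Clec4g listed at 0 in all tumours), and 2 of 7 Kupffer cell markers (C6 and Clec4f, the latter listed at 0 in RHAMMB tumours). The endothelial and Kupffer genes named here entered the test through the metastases alone, as did 1 of the 3 cholangiocyte markers. Another Kupffer marker, Folr2, was lower in both comparisons (-1.89 from RHAMMB and -2.45 from N134 tumours, adjusted p = 0.00516 and 0.000714). The summed endothelial markers lay at 75.5 to 98.5 FPKM in tumours and 86.4 to 106 in metastases, and the Kupffer markers at 72.2 to 131 and 80.1 to 144. Markers of other cell types were lower in metastases, mainly against N134 tumours. Of 17 fibroblast and matrix markers, 5 were lower and 1 higher than in RHAMMB tumours and 12 lower than in N134 tumours, with a summed level of 384 to 695 FPKM in metastases beside 553 to 1360 in tumours. Of 14 macrophage markers, 0 were called against RHAMMB tumours and 12 were lower than in N134 tumours (279 to 472 FPKM in metastases, 426 to 1044 in tumours). Of 4 adipocyte markers 2 and 4 were lower, and 3 of the 4 entered the test through tumours alone. The part of these cells in the levels below was not tested. In bulk samples, fewer cells of a type and less RNA per cell cannot be told apart.

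**Figure D2:**
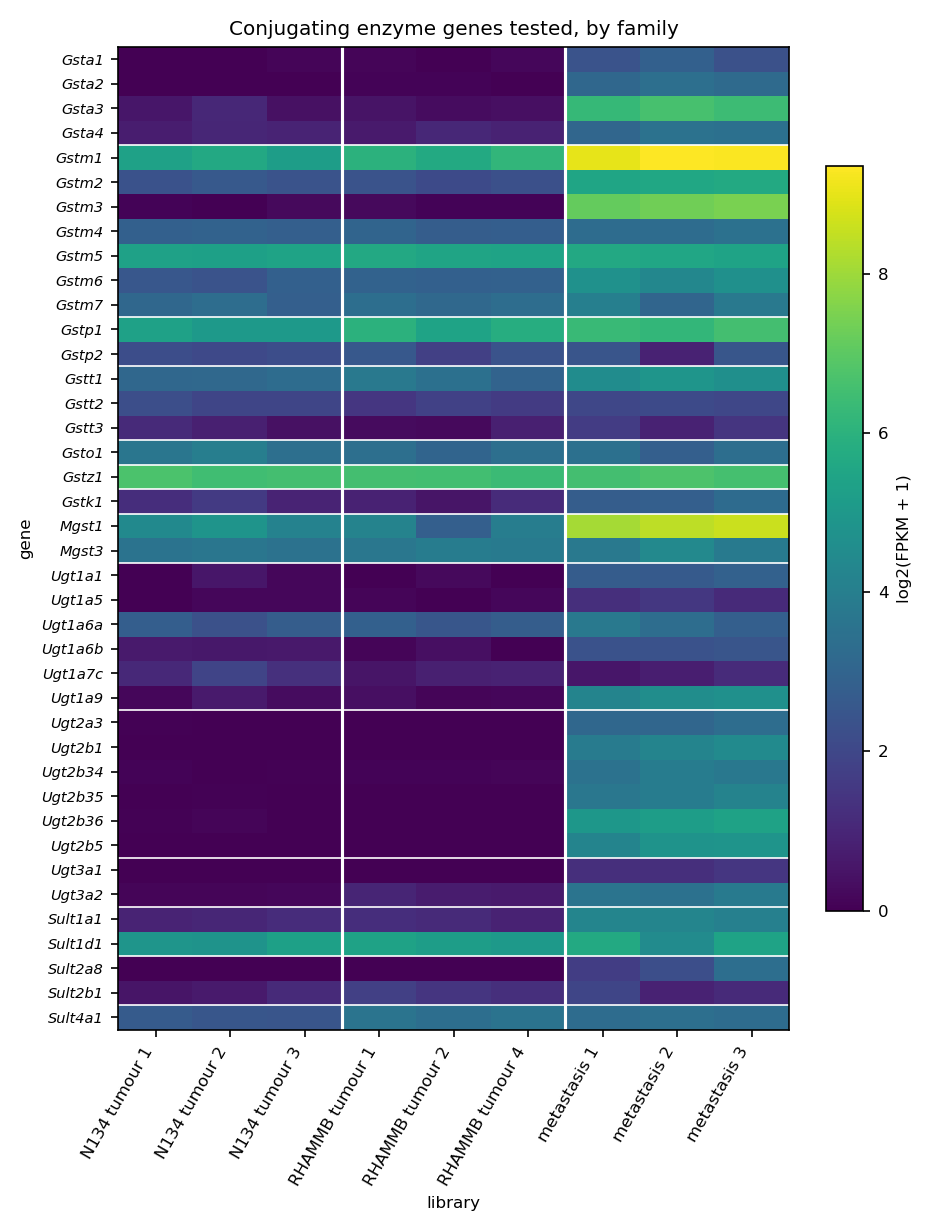
Level of the 40 tested genes, as log2(FPKM + 1) by colour, with 1 column per library and 1 row per gene, grouped by family (white lines). The alpha class, Gstm3 and the UGT2 family are dark in all 6 subcutaneous tumours and lighter in all 3 metastases, with Gstm3 and Gsta3 the brightest of them. Gstz1, Gstm5 and Sult1d1 keep a similar colour across the 9 libraries.

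Glutathione transferases took most of the summed level in every library, 300 ± 14.9 FPKM (SD, n = 3) in N134 tumours, 328 ± 31.4 in RHAMMB tumours and 1586 ± 164 in metastases. In metastases, 12 of the 21 tested were higher than in RHAMMB tumours and 13 than in N134 tumours, and 3 of these (Gstm3, Gsta1 and Gsta2) entered the test through the metastases alone. The mu class held the highest value in each metastasis. Gstm1 was at 40.0, 48.5 and 36.3 FPKM in the N134 tumours 1, 2 and 3, at 63.8, 50.6 and 70.7 in RHAMMB tumours 1, 2 and 4, and at 514, 653 and 636 in metastases 1, 2 and 3. No 2 of its groups overlapped. Its log2 difference was 3.27 (SE 0.16, adjusted p = 1.27e-07) from RHAMMB tumours and 3.82 from N134 tumours (adjusted p = 3.76e-08).

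Gstm3, a mu class transferase next to Gstm2 and Gstm6, was nearly silent in tumours. It was listed at 0.0542, 0 and 0.172 FPKM in the N134 tumours and at 0.172, 0.0591 and 0.0616 in RHAMMB tumours, and reached 139, 161 and 178 in the metastases. With a log2 difference of 7.19 (SE 0.15, adjusted p = 5.72e-10) from RHAMMB tumours it was the member with the widest difference in that comparison. The size depends on how the lowest values are treated, and ran from 7.05 to 9.70 over the alternatives tried.

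Gstm2 lay at 4.18, 5.08 and 4.25 FPKM in the N134 tumours, 4.20, 3.26 and 3.82 in RHAMMB tumours and 43.8, 47.1 and 49.9 in metastases. Both kinds of tumour overlapped with each other and lay far below the metastases (log2 difference from RHAMMB tumours 3.33, SE 0.13, adjusted p = 3.67e-08). Gstm6 followed with 4.84, 4.25 and 6.37 FPKM, then 6.69, 6.36 and 6.42, and 25.7, 19.0 and 24.7 in metastases. Its difference from RHAMMB tumours was 1.68 (SE 0.17, adjusted p = 5.35e-05).

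Gstm4, at the end of the same cluster, had the smallest difference of the called members. Its levels were 6.29, 6.60 and 6.06 FPKM in the N134 tumours, 7.02, 5.73 and 6.02 in RHAMMB tumours and 9.02, 9.01 and 10.2 in metastases. The metastases lay above both kinds of tumour, by 0.52 (SE 0.13, adjusted p = 0.0411) and 0.51 (adjusted p = 0.0357). The call against RHAMMB tumours was lost when any library other than metastasis 2 was left out, with adjusted p from 0.0652 to 0.131. Against N134 tumours it was lost without any of the 3 N134 tumours, RHAMMB tumour 1 or 4, or metastasis 1 or 3, with adjusted p from 0.05004 to 0.125.

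Gstm5 and Gstm7 stood apart from the other mu class genes. Gstm5, known as the mu class enzyme of brain and testis, was at 40.2, 39.3 and 41.7 FPKM in the N134 tumours, 49.5, 43.6 and 42.2 in RHAMMB tumours and 48.8, 45.8 and 41.5 in metastases. Metastases overlapped with both kinds of tumour (log2 difference from RHAMMB tumours 0.01, SE 0.10, adjusted p = 0.981). Gstm7 was at 7.72, 9.16 and 6.15 FPKM, 9.44, 7.95 and 9.06, and 15.2, 7.2 and 12.6 in the same order. Its metastasis 2 lay within the range of N134 tumours, and without that library the difference from N134 tumours passed (0.79, adjusted p = 0.0146, beside 0.51 and 0.261 with it).

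All 7 mu class genes lie within chr3:107895821-108044894. From low to high coordinate the order is Gstm5, Gstm7, Gstm6, Gstm3, Gstm2, Gstm1, Gstm4, so the 2 genes that were not called sit side by side at 1 end and the 5 called genes fill the rest. Copies this alike can trade reads: 28.8% of the 50-nucleotide windows of Gstm3 and 23.1% of those of Gstm1 occur in another gene, against 0% for Gstm4, Gstm5 and Gstm7. The levels of Gstm1, Gstm2, Gstm3 and Gstm6 are therefore uncertain in how reads were divided among them.

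**Figure D3:**
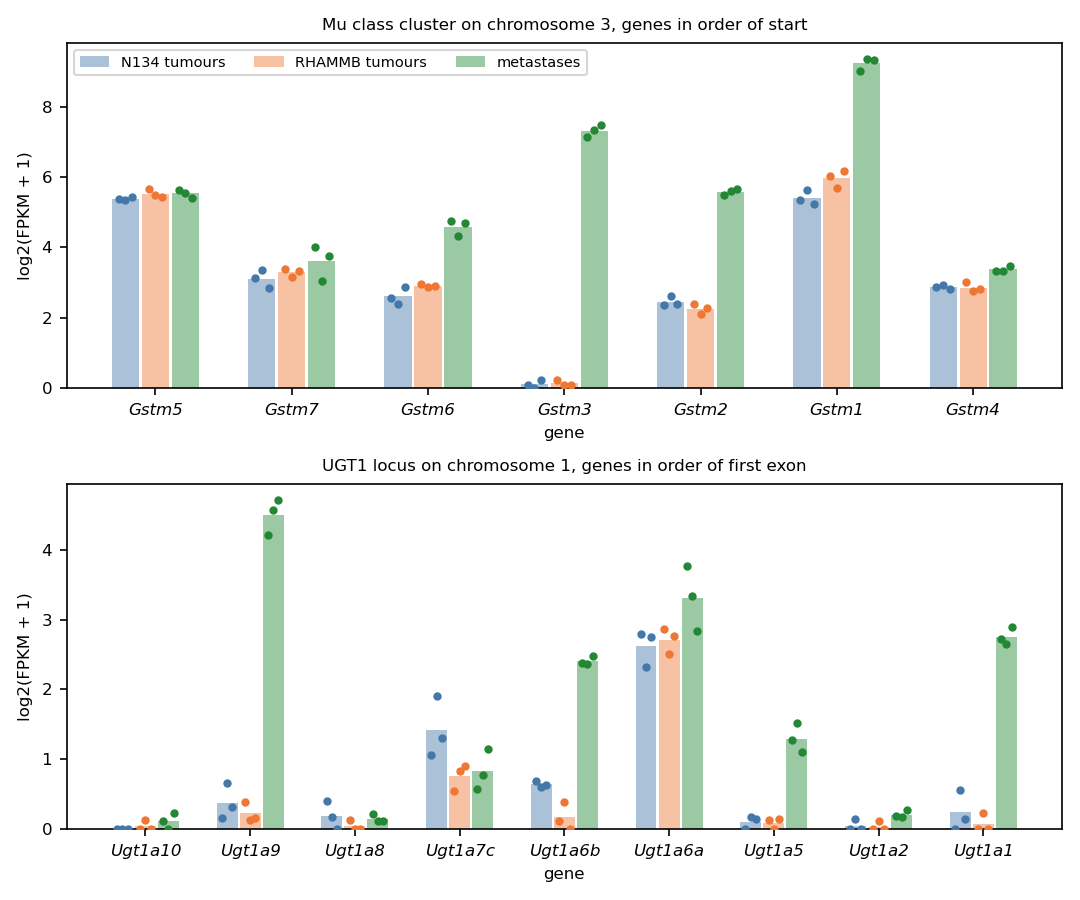
Level as log2(FPKM + 1) of the 7 mu class genes (top) and the 9 UGT1 genes (bottom), in their order along the chromosome, with bars for group means and points for the 3 libraries of each group. Every metastasis exceeds every tumour from Gstm6 to Gstm4. At Gstm5 and Gstm7 the points of metastases and tumours overlap, though the Gstm7 mean is higher in metastases. In the UGT1 locus Ugt1a9 and Ugt1a1 are near 0 in tumours, and Ugt1a6a is expressed in all 9 libraries.

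Mgst1 (chr6:138140316-138156755), the membrane-bound transferase of endoplasmic reticulum and mitochondria, was the runner-up in metastases. It was at 20.6, 27.8 and 16.5 FPKM in the N134 tumours, 17.2, 6.15 and 14.6 in RHAMMB tumours and 274, 344 and 390 in metastases. Its log2 difference was 4.72 (SE 0.32, adjusted p = 2.26e-06) from RHAMMB and 3.91 from N134 tumours (adjusted p = 1.04e-05). None of its windows occurs in another gene. RHAMMB tumour 2, 1 of the 2 with muscle transcripts, was the lowest of the 9 libraries.

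The 4 alpha class genes were called in both comparisons. Gsta1 and Gsta2 entered the test through the metastases alone, and Gsta3 and Gsta4 reached 1 FPKM in 1 tumour each, so the filter had a part in these calls. Gsta3, which also isomerises steroid intermediates, was at 0.463, 1.08 and 0.337 FPKM in the N134 tumours, 0.424, 0.229 and 0.315 in RHAMMB tumours and 76.4, 97.9 and 85.2 in metastases. The metastases lay 6.04 (SE 0.19, adjusted p = 5.6e-09) above RHAMMB tumours on the log2 scale, and no window of Gsta3 occurs in another gene. Gsta4, the transferase that clears 4-hydroxynonenal from lipid peroxidation, was at 0.693, 0.989 and 0.895, then 0.596, 1.05 and 0.866, and 7.44, 10.6 and 9.83 in metastases (log2 difference from RHAMMB tumours 2.48, SE 0.17, adjusted p = 3.19e-06).

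Gsta2 was listed at 0 in all N134 tumours, at 0.0778, 0.0779 and 0 FPKM in RHAMMB tumours, and at 7.70, 9.57 and 8.52 in metastases (log2 difference from RHAMMB tumours 3.19, SE 0.14, adjusted p = 7.59e-08). Gsta1 reached 4.30, 6.26 and 3.96 FPKM in metastases and at most 0.111 in any tumour (2.43, SE 0.17, adjusted p = 3.49e-06). These are near-identical copies, with 89.7% of the windows of Gsta1 and 64.2% of those of Gsta2 in another gene, and their separate values are uncertain.

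Smaller classes differed from gene to gene. Gstt1, a theta class enzyme that acts on halogenated small molecules, was at 7.65, 7.90 and 9.01 FPKM in the N134 tumours, 12.8, 9.85 and 6.79 in RHAMMB tumours and 22.4, 28.5 and 24.4 in metastases (log2 difference from RHAMMB tumours 1.30, SE 0.20, adjusted p = 0.00155). Gstk1, the kappa class enzyme of mitochondria and peroxisomes, was at 1.33, 1.99 and 0.909, then 0.871, 0.427 and 1.24, and 5.77, 6.16 and 8.71 in metastases (2.1, SE 0.23, adjusted p = 0.000147). Both had metastases above every tumour. The neighbours of Gstt1 did not pass: Gstt2 had means of 3.17, 2.1 and 3.10 FPKM in the N134 tumours, RHAMMB tumours and metastases, and Gstt3, whose difference from RHAMMB tumours was 0.90 (adjusted p = 0.0749), passed without metastasis 2 (1.11, adjusted p = 0.0173) and with median-of-ratios scaling (adjusted p = 0.0477).

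Gstz1, Mgst3 and Gsto1 did not pass in any comparison, nor did Gstm5 and Gstm7 above. Gstz1 was at 104, 87.8 and 92.2 FPKM in the N134 tumours, 92.5, 91.2 and 81.7 in RHAMMB tumours and 93.3, 106 and 95.1 in metastases. The metastases overlapped with N134 tumours and lay just above RHAMMB tumours, by 0.15 (SE 0.10, adjusted p = 0.553). Mgst3, a microsomal peroxidase, was at 10.9, 11.7 and 10.6, then 12.2, 14.2 and 13.0, and 12.9, 20.3 and 13.1 in metastases (0.19, SE 0.17, adjusted p = 0.665). Gsto1, the omega class enzyme that reduces dehydroascorbate, was at 11.7, 15.1 and 9.78 FPKM, then 9.61, 7.0 and 9.68, and 9.88, 6.19 and 9.51 in metastases (-0.05, SE 0.21, adjusted p = 0.95).

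Gstp1, the pi class enzyme common in tumour cells, was ordered over all 3 groups. It was at 39.5, 32.2 and 31.9 FPKM in the N134 tumours, 63.9, 42.2 and 56.0 in RHAMMB tumours and 79.6, 72.6 and 93.5 in metastases, with no overlap between any 2 groups. Only the outer pair passed: metastases lay 1.22 (SE 0.16, adjusted p = 0.000569) above N134 tumours. Each of the other steps had about the same size, 0.62 (adjusted p = 0.173) between the kinds of tumour and 0.60 (adjusted p = 0.0583) from RHAMMB tumours to metastases. The last step passed without RHAMMB tumour 1 (0.73, adjusted p = 0.038), without metastasis 2 (0.69, adjusted p = 0.0362), and with median-of-ratios scaling (adjusted p = 0.00964) or quantile normalization (adjusted p = 0.0225). Gstp1 shares 62.3% of its windows with Gstp2, its neighbour on chromosome 19, which had means of 3.47, 3.87 and 3.34 FPKM in the 3 groups and left the range of tumours only in metastasis 2 (0.859).

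**Figure D4:**
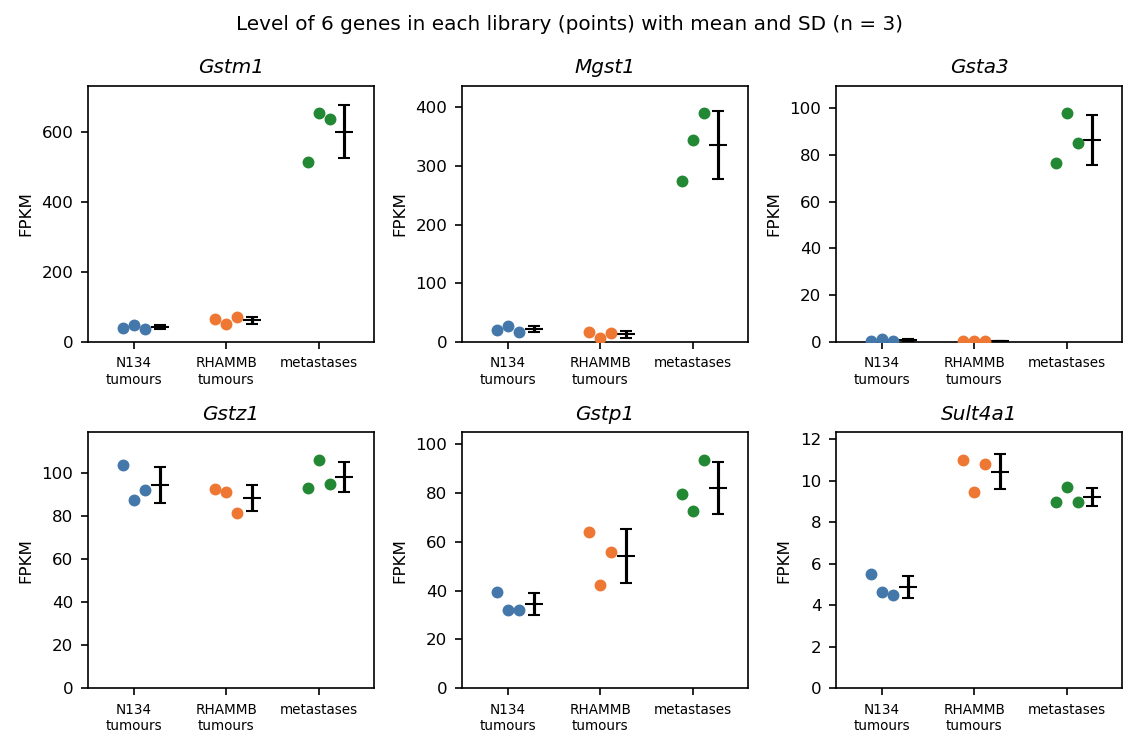
FPKM of 6 members in each library (points), with the group mean and SD (bars, n = 3), on linear axes from 0. Gstm1, Mgst1 and Gsta3 are higher in every metastasis than in any tumour. Gstz1 lies between 81.7 and 106 FPKM, Gstp1 has 3 groups without overlap, and Sult4a1 is higher in RHAMMB tumours and metastases than in N134 tumours.

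Glucuronosyltransferases were nearly absent from subcutaneous tumours, with a summed level of 9.37 ± 0.322 FPKM (SD, n = 3) in N134 tumours and 7.97 ± 0.743 in RHAMMB tumours, and reached 170 ± 21.3 in metastases. Of 14 tested, 12 were higher in metastases in each comparison. All 12 entered the test through the metastases alone, so they had to differ, and the 2 that reached 1 FPKM in tumours, Ugt1a6a and Ugt1a7c, were not called. The UGT2 family, which glucuronidates steroids, bile acids and many drugs, had 6 tested members of 10, all higher. Its summed level in tumours was 0.0544 to 0.174 FPKM, and 92.0, 117 and 128 in metastases 1, 2 and 3.

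Ugt2b36 led the family with 29.8, 36.0 and 40.6 FPKM in metastases. It was listed at 0.0335, 0.0912 and 0 in N134 tumours and at 0 in all RHAMMB tumours (metastases against N134 tumours, log2 difference 5.12, SE 0.15, adjusted p = 4.1e-09). Ugt2b5 had 17.6, 27.3 and 27.4 FPKM in metastases and was listed at 0 in all 6 tumours, where the test gave adjusted p = 3e-08 against RHAMMB tumours. Its value is uncertain, since 41.7% of its windows occur in Ugt2b36, Ugt2b37 or Ugt2b38.

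Ugt2b1 reached 14.0, 17.9 and 21.2 FPKM in metastases and was listed at 0.0231, 0 and 0 in N134 tumours and at 0 in the RHAMMB tumours (4.19 against N134 tumours, SE 0.16, adjusted p = 3.13e-08). Ugt2b35 reached 12.1, 14.2 and 16.9, with 0.0185, 0.0360 and 0.0194 in N134 tumours and 0.0191, 0 and 0 in RHAMMB tumours (3.93 from the latter, SE 0.15, adjusted p = 2.98e-08). Ugt2b34 was the only UGT2 gene above 0 in every library. It was at 0.0711, 0.0171 and 0.0368 FPKM in the N134 tumours, 0.0734, 0.0544 and 0.0794 in RHAMMB tumours and 10.5, 14.1 and 12.3 in metastases (3.63, SE 0.15, adjusted p = 3.93e-08).

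Ugt2a3 was at 7.73, 7.50 and 9.11 FPKM in metastases, 0.0276, 0 and 0 in N134 tumours and 0 in RHAMMB tumours (3.17 against N134 tumours, SE 0.14, adjusted p = 6.78e-08). These genes share chr5:86889767-87591594 with Sult1b1, Sult1d1 and Sult1e1. In that stretch of 13 members, the 6 UGT2 genes were called and Sult1d1, tested too, was not. The other UGT2 genes stayed low in metastases as well: Ugt2b37 and Ugt2b38 did not exceed 0.405 FPKM in any library, and Ugt2a1 and Ugt2a2, the olfactory forms, were listed at 0 in all 9.

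The UGT1 locus (chr1:88055388-88220002) had summed levels of 8.33 ± 0.308, 6.81 ± 0.562 and 43.8 ± 1.56 FPKM in the N134 tumours, RHAMMB tumours and metastases (SD, n = 3). Because the 9 genes share exons, 58.2% to 100% of the windows of each tested one occur in another, and the split between them is less certain than the sum. Ugt1a9, which acts on phenols and fatty acids, led in metastases. It was at 0.119, 0.578 and 0.247 FPKM in the N134 tumours, 0.309, 0.0951 and 0.118 in RHAMMB tumours and 17.5, 22.8 and 25.2 in metastases (log2 difference from RHAMMB tumours 4.27, SE 0.19, adjusted p = 8.19e-08).

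Ugt1a1, the enzyme that conjugates bilirubin, was at 5.58, 5.25 and 6.44 FPKM in metastases. In N134 tumours it was below 1e-06, 0.479 and 0.108, and in RHAMMB tumours it was below 1e-06 in tumours 1 and 4 and at 0.175 in tumour 2 (2.67, SE 0.18, adjusted p = 2.28e-06). Ugt1a6b and Ugt1a5 were called with means of 4.31 and 1.47 FPKM in metastases. They differed from RHAMMB tumours by 2.24 (adjusted p = 2.25e-06) and 1.20 (adjusted p = 0.00048).

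Ugt1a6a, a phenol glucuronosyltransferase, was the UGT1 gene that tumours expressed most. It was at 5.95, 4.01 and 5.73 FPKM in the N134 tumours, 6.30, 4.69 and 5.79 in RHAMMB tumours and 12.6, 9.09 and 6.17 in metastases. Metastasis 3 lay within the range of RHAMMB tumours, and neither difference passed (0.60, SE 0.24, adjusted p = 0.221, and 0.69, adjusted p = 0.107); without metastasis 3 the difference from N134 tumours was 0.93 (adjusted p = 0.0284). All of its windows occur in other UGT1 genes. Ugt1a7c had means of 1.76, 0.70 and 0.803 FPKM in the 3 groups and did not pass in any comparison.

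The UGT3 pair, enzymes that use other sugars such as N-acetylglucosamine or glucose, entered the test through the metastases alone and was called in both comparisons. Ugt3a2 was at 0.0858, 0.0857 and 0.127 FPKM in the N134 tumours, 0.939, 0.646 and 0.588 in RHAMMB tumours and 11.3, 10.2 and 13.6 in metastases (2.87 from RHAMMB tumours, SE 0.16, adjusted p = 3.84e-07). Its 3 groups did not overlap. Ugt3a1 was listed at 0 in all 6 tumours and stood at 1.37, 1.38 and 1.77 FPKM in metastases. Ugt8a, which makes the galactosylceramide of myelin, did not exceed 1.81 FPKM and was not tested.

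Sulfotransferases had 5 tested members, of which 2 were higher in metastases than in RHAMMB tumours and 3 than in N134 tumours, Sult2a8 having entered the test through the metastases alone. The summed level of all 20 was 39.8 ± 6.75 FPKM (SD, n = 3) in N134 tumours, 51.5 ± 5.64 in RHAMMB tumours and 73.9 ± 16.2 in metastases. Sult1d1 had the highest level of the 20 in every library. That enzyme, which sulfates catecholamines and their metabolites, was at 28.6, 27.0 and 39.2 FPKM in the N134 tumours, 40.8, 35.9 and 32.3 in RHAMMB tumours and 49.7, 21.6 and 42.2 in metastases. Metastases held both the highest and the lowest of the 9 values, and no comparison passed (-0.02 from RHAMMB tumours, SE 0.27, adjusted p = 0.985).

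Sult1a1, the phenol sulfotransferase, was called. It was at 0.900, 1.02 and 1.28 FPKM in the N134 tumours, 1.34, 1.16 and 0.852 in RHAMMB tumours and 18.1, 17.9 and 15.9 in metastases (3.12, SE 0.15, adjusted p = 1.66e-07). Sult2a8, a sulfotransferase for bile acids, was listed at 0 in all 6 tumours. In metastases 1, 2 and 3 it was at 2.24, 3.79 and 9.48 FPKM, the widest spread of the called members (coefficient of variation 73.7%). Its call against RHAMMB tumours (adjusted p = 0.000798) was lost without RHAMMB tumours 2 and 4 together (adjusted p = 0.0509).

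Sult4a1 (chr15:84076097-84105754), a sulfotransferase of neurons with no firmly known substrate, was the only member called between the 2 kinds of tumour. Its levels were 5.5, 4.65 and 4.50 FPKM in the N134 tumours, 11, 9.46 and 10.8 in RHAMMB tumours and 8.96, 9.69 and 8.98 in metastases. N134 tumours lay below all other libraries, and metastases overlapped with RHAMMB tumours. Metastases were 0.80 above N134 tumours (SE 0.13, adjusted p = 0.00258) and differed from RHAMMB tumours by -0.16 (adjusted p = 0.635).

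In RHAMMB against N134 tumours, the comparison that bears on RHAMMB at 1 site, Sult4a1 was 0.96 higher (SE 0.13, adjusted p = 0.0365). The 40 tested members had 1 call higher and 0 lower, where 0.194% of all 12854 genes were called, 0.0778% higher and 0.117% lower. The call was lost when any 1 of the 6 subcutaneous tumours was left out (N134 tumour 1, 2 or 3, RHAMMB tumour 1, 2 or 4), with differences of 0.91 to 1.03 and adjusted p from 0.0856 to 0.215. Without RHAMMB tumours 2 and 4 together the difference was 1.03 (adjusted p = 0.379). At an unadjusted p below 0.05 there were 9 members, where 12.8% of all genes reached that threshold, and the groups did not overlap for 11, where 25.3% of all genes did not overlap.

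The 8 members that reached only the unadjusted threshold were split in direction. Gstp1 (0.62, adjusted p = 0.173), Gstm1 (0.55, adjusted p = 0.186), Ugt3a2 (0.64, adjusted p = 0.15) and Sult2b1 (0.73, adjusted p = 0.322), a cholesterol sulfotransferase, had positive differences. Mgst1 (-0.81, adjusted p = 0.328), Ugt1a7c (-0.66, adjusted p = 0.285), Ugt1a6b (-0.47, adjusted p = 0.234) and Gstt2 (-0.43, adjusted p = 0.298) had negative ones. Ugt3a2 passed with a pseudocount of 0.1 (2.03, adjusted p = 0.0384) and in a fit of the 2 groups alone (adjusted p = 0.0314). With library weights, all 8 but Mgst1 passed, in a fit that called 2629 of all 12854 genes. The median over the 40 members was 0.00, beside 0.01 over all genes. Hepatocyte markers had 0 of 22 called in this comparison. Of 17 fibroblast and matrix markers 2 were lower in RHAMMB tumours, with a summed level of 553 to 858 FPKM beside 1026 to 1360 in N134 tumours, and skeletal muscle markers summed to 18.2 to 247 beside 13.1 to 23.1; their part in these differences was not tested.

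**Figure D5:**
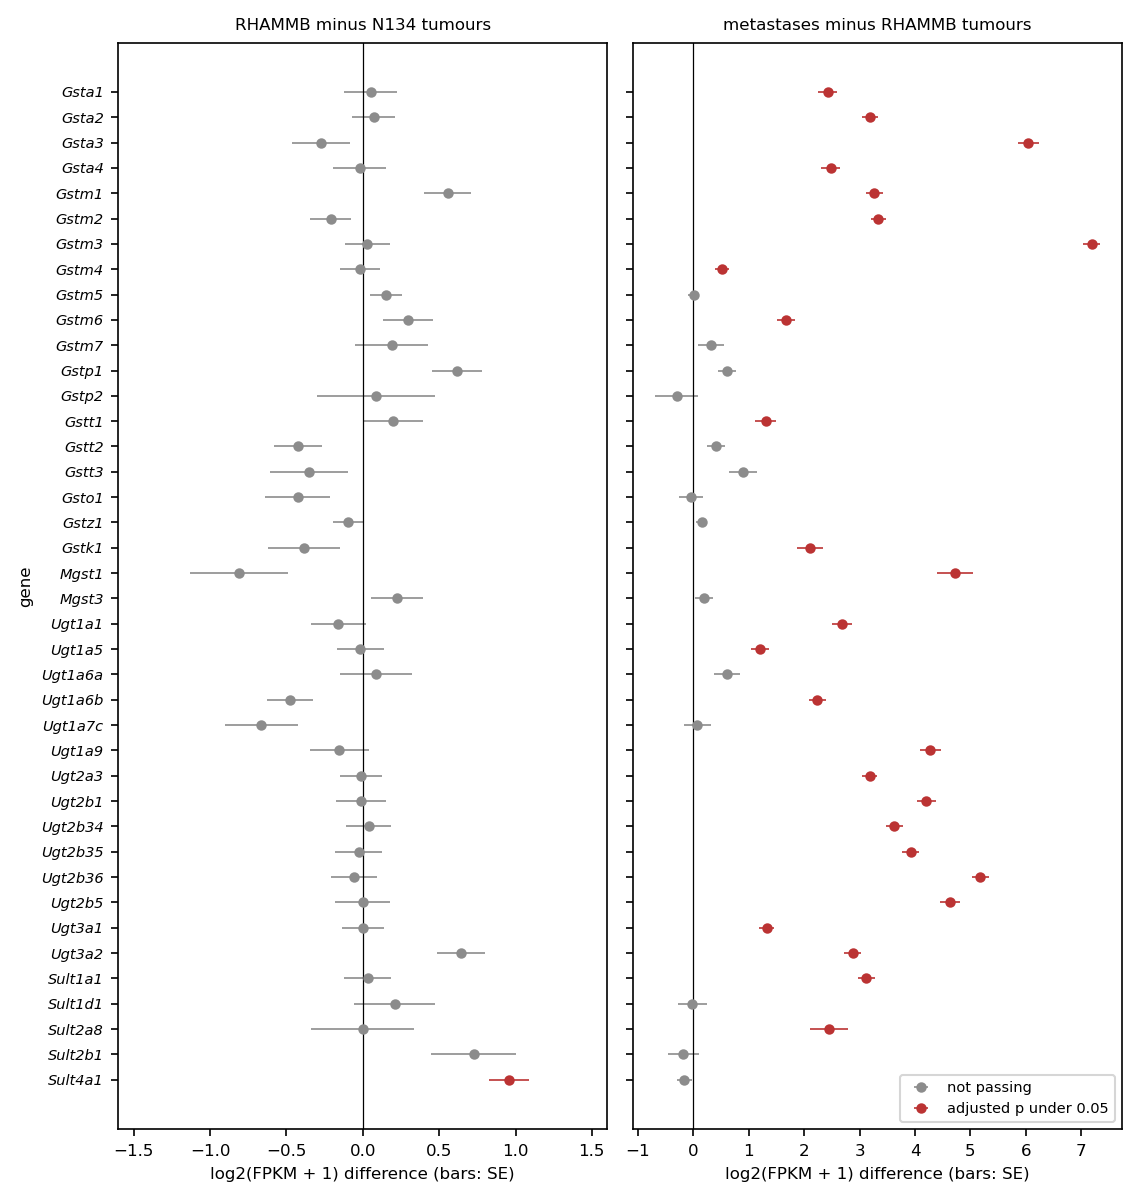
Differences in log2(FPKM + 1) for the 40 tested members, with bars for the SE, in RHAMMB minus N134 tumours (left) and metastases minus RHAMMB tumours (right); the horizontal scales differ. Red points passed at an adjusted p below 0.05: only Sult4a1 on the left, and on the right 26 members, from Gstm4 at 0.52 to Gstm3 at 7.19.

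The metastases also differed among themselves. Over the 26 members called against RHAMMB tumours, metastasis 1 was the lowest of the 3 for 17 and metastasis 3 the highest for 16, with a median coefficient of variation of 15.0%. Over the 14 members not called, metastasis 2 was the lowest for 7 and metastasis 1 the highest for 7, with a median of 31.0%. The 22 hepatocyte markers were lowest in metastasis 1 for 14 and highest in metastasis 2 for 12, with a median of 13.1%. Genes within 1 library share its depth and composition, so these counts describe 3 libraries and carry no test.

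The steps around conjugation were read from lists of their genes, and the filter bears on these too. Genes that entered the test through the metastases alone had to differ, and their number is given where it is above 0. The counts stand beside 6.56% of all genes called in metastases against RHAMMB tumours and 9.93% against N134 tumours. For glutathione supply, 3 of 13 tested genes were higher in metastases than in RHAMMB tumours and 0 lower, and 2 were higher and 2 lower than in N134 tumours. Oplah, which returns oxoproline to glutamate, rose by 1.73 (SE 0.19, adjusted p = 0.000145) from RHAMMB tumours, and Gclc, the catalytic subunit of the rate-limiting ligase, by 0.95 (SE 0.13, adjusted p = 0.000794), from 9.64 ± 0.480 to 19.7 ± 2.62 FPKM (SD, n = 3). Gss, glutathione synthetase, did not pass (0.31, adjusted p = 0.337). The genes lower than in N134 tumours were Ggt5 (-1.04, adjusted p = 0.0111) and Ggct (-0.76, adjusted p = 0.0374), which take glutathione and its products apart.

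Supply of the other donors came next. Against RHAMMB and N134 tumours, 12.5% and 12.5% of the UDP-glucuronate list and 8.33% and 16.7% of the sulfate list were called. Over all genes the shares were 6.56% and 9.93%. These are counts of 1 or 2 genes and are not read as a result about donor supply. Of 8 genes for UDP-glucuronate and glucuronide cleavage, Ugp2, which makes UDP-glucose, was higher in metastases in both comparisons (0.44 and 0.40, adjusted p = 0.0331 and 0.0408), and Ugdh, which makes UDP-glucuronate, did not pass (0.23 and 0.54, adjusted p = 0.541 and 0.0521). Of 12 genes for sulfate supply and cleavage, Slc26a1, a sulfate carrier of liver and kidney that entered through the metastases alone, was higher in both (2.40 and 2.42, adjusted p = 2.34e-05 and 2.14e-05), and Suox, sulfite oxidase, only passed against N134 tumours (0.64, adjusted p = 0.0452). Papss1 and Papss2, the PAPS synthases, did not pass. Papss2 stood at 50.1 ± 12.3, 53.9 ± 8.2 and 54.5 ± 17.7 FPKM in the N134 tumours, RHAMMB tumours and metastases (SD, n = 3).

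Enzymes before and beside these families were higher in metastases in larger numbers, in part through genes that entered the test through the metastases alone. Of 20 tested genes of oxidation and hydrolysis, 15 were higher than in RHAMMB tumours and 16 than in N134 tumours, with 0 lower, and 8 of these entered through the metastases alone. Of the 12 that reached 1 FPKM in a tumour, 7 and 8 were higher. Ces1c, a carboxylesterase, went from 0.0834 ± 0.112 to 85.0 ± 12.1 FPKM (SD, n = 3; log2 difference 6.31, adjusted p = 2.44e-09), and Aldh1a1, which oxidises retinal, from 1.04 ± 0.334 to 84.2 ± 13.8 (5.39, adjusted p = 1.7e-08). Ces3a, another carboxylesterase, went from 0.0349 ± 0.0605 to 51.3 ± 16.6 (5.61, adjusted p = 3.29e-08). Akr1c6, a hydroxysteroid dehydrogenase, was listed at 0 in RHAMMB tumours and had 83.2 ± 18.0 FPKM in metastases. Ephx1, microsomal epoxide hydrolase, which opens reactive epoxides, was the only gene of the list called between the kinds of tumour. It was at 14.6 ± 1.26 FPKM in the N134 tumours, 37.9 ± 2.1 in RHAMMB tumours and 53.3 ± 10.1 in metastases, a difference of 1.32 between the tumours (SE 0.14, adjusted p = 0.0139). With N134 tumour 1, 2 or 3 left out, 0 of all 12854 genes were called between the kinds of tumour. The Ephx1 call was thus lost in each of those fits.

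Of 13 tested genes for other conjugations, 9 and 8 were higher in metastases, 7 of them genes that entered through the metastases alone. Of the 6 that reached 1 FPKM in a tumour, 2 and 1 were higher. The conjugation genes named next entered through the metastases alone, so they had to differ. Slc27a5, which activates bile acids for conjugation, differed from RHAMMB tumours by 4.22 (SE 0.17, adjusted p = 3.36e-08) and Acsm1 by 3.42 (adjusted p = 3.54e-07). Glyat, which joins acids to glycine, differed by 3.22 (adjusted p = 4.27e-07), and Baat, which joins bile acids to taurine, by 2.78 (adjusted p = 6.6e-07). Of 15 tested transporters, 8 and 9 were higher, again with 7 that entered through the metastases alone. Of the 8 that reached 1 FPKM in a tumour, 1 and 2 were higher. The transporters named next entered through the metastases alone as well. Slco1b2, a basolateral uptake carrier of hepatocytes, was at 41.1 ± 8.30 FPKM in metastases and 0.0222 ± 0.0193 in RHAMMB tumours (SD, n = 3; 5.35, adjusted p = 4.79e-09), and Abcc2, the pump that sends conjugates into bile, at 9.92 ± 2.5 and 0.221 ± 0.345 (3.17, adjusted p = 3.56e-06). Slco1a1, another uptake carrier, was listed at 0 in all RHAMMB tumours.

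Of 21 tested regulators of detoxification genes, 8 were higher in metastases in each comparison and 0 lower, and 5 of the 8 entered through the metastases alone. Nr1i3, the xenobiotic receptor CAR, was listed at 0 in all RHAMMB tumours and had 7.91 ± 1.52 FPKM in metastases (SD, n = 3). Nr1h4, the bile acid receptor, rose by 2.02 from RHAMMB tumours (adjusted p = 2.69e-05), Ppara by 1.55 (adjusted p = 0.00037) and Nr1i2, the receptor PXR, by 1.45 (adjusted p = 4.28e-05). Hnf4a, a hepatocyte factor that pancreatic islets express as well, did not pass. It was at 35.8 ± 1.59, 34.4 ± 4.29 and 36.4 ± 6.35 FPKM in N134 tumours, RHAMMB tumours and metastases (SD, n = 3). Nfe2l2, which encodes NRF2, was at 14.0 ± 1.33, 12.6 ± 0.890 and 15.4 ± 2.58 and did not pass either.

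Of 17 tested genes known as NRF2 targets outside the set, 2 (11.8%) were higher and 0 lower in metastases against RHAMMB tumours, where 6.56% of all genes were called, namely Osgin1 (1.74, adjusted p = 7.26e-05) and Gclc. Against N134 tumours 3 were higher and 2 lower (29.4%, beside 9.93% of all genes), the lower ones being Hmox1, heme oxygenase (-2.74, adjusted p = 0.00507), and Nqo1, the quinone reductase (-0.71, adjusted p = 0.00976). Nqo1 was at 82.0 ± 6.27, 56.7 ± 4.03 and 50.2 ± 10.5 FPKM in the N134 tumours, RHAMMB tumours and metastases (SD, n = 3).

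The 26 members outside the test had at most 2.03 FPKM in any library. They were 15 sulfotransferases, 8 glucuronosyltransferases and 3 glutathione transferases. Listed at 0 in all 9 libraries were Sult1c1, Sult2a1, Sult2a3, Sult2a5, Sult2a6, Sult2a7, Sult3a2, Ugt2a1 and Ugt2a2. The Sult2a cluster on chromosome 7 thus had 1 tested gene of 8, Sult2a8, the other 7 reaching at most 0.103 FPKM, and these include Sult2a1, a sulfotransferase for steroids and bile acids. Sult1b1, with the highest value outside the test, had means of 0.506, 0.70 and 1.52 FPKM in the N134 tumours, RHAMMB tumours and metastases. Mgst2, which can make leukotriene C4, had means of 0.784, 0.325 and 0.136 in the same order, and Sult1e1, the estrogen sulfotransferase, reached at most 0.0992 FPKM.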

How the data were processed

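RNA was measured in 9 libraries, 3 per group. The authors deposited 1 table of FPKM values for 22053 rows in GRCm38, per the file headers, with a status word for each value. The submitters' processing notes name bcl2fastq 2.19, STAR 2.5.2 and Cufflinks 2.1.1 and no role for any of them. Strand and library preparation: not given in the sources used here. Whether strand could tell reads of overlapping genes apart is therefore not known. Near-identical copies share sequence, so the division of reads among them is uncertain whatever the strand. FPKM divides by library size, so a gene's value depends on what other genes take up.

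7 rows with a failed estimate and 102 repeats of a symbol were dropped, none of them among the 66 genes. The 12854 genes at 1 FPKM or more in at least 3 libraries were tested on log2(FPKM + 1), pseudocount 1, with limma 3.58.1 in R 4.3.3 (1 model over 9 libraries, trended prior, 6 residual degrees of freedom, 2-sided, Benjamini-Hochberg over all genes tested, adjusted p below 0.05). Exact permutation of 3 against 3 cannot go below 0.10 and was not used. The script was tested on simulated data.

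Depth was estimated from the FPKM of single fragments in genes with 1 transcript. Shared sequence is the percent of a transcript's 50-nucleotide windows found in another gene of GENCODE M21. Table starts were 1 below the annotated start in 82.3% of 21739 rows matched by gene ID, and 1 was added. Promoters are those of RefSeq. Figures were drawn in Python 3.11.15 with matplotlib 3.10.9.

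The members, gene lists and tests were chosen with earlier results of these data known. Members called in any comparison with a group mean of at least 5 FPKM, and uncalled members at that mean in subcutaneous tumours, are given by library; other members by mean, range or name. From pathway lists, the 2 to 4 genes with large differences are named, and others chosen after their values were seen (Gss, Ugdh, Papss1, Papss2, Ephx1, Hnf4a, Nfe2l2, Nqo1); a few listed genes and motifs are not reported here. Alternatives were a pseudocount of 0.1, no filter, a mean of at least 5 FPKM, median-of-ratios scaling, quantile normalization, the 2 groups alone, library weights, a replicate block and each library left out; the fit without RHAMMB tumours 2 and 4 was added after the data were seen. Fits on fewer libraries kept the 12854 genes.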

Additional observations from a re-analysis of the deposited data

How the results depend on the processing

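Alternatives were run for the 40 tested members. None of their called differences changed sign, and of their 120 differences, 20 that did not pass changed sign under at least 1 alternative without passing there (lowest adjusted p 0.298); Gstp2, for one, went from -0.30 to 0.23 against RHAMMB tumours without metastasis 2, and Sult1d1 from -0.02 to 0.33. Members higher in RHAMMB than in N134 tumours (1) numbered 2 with a pseudocount of 0.1 or in the 2 groups alone, 6 with library weights (with 3 lower in place of 0), 0 to 1 with a library left out and 0 without RHAMMB tumours 2 and 4. All genes called there (25) numbered 15 at a mean FPKM of 5 or more, 169 in the 2 groups alone, 2629 with library weights, 0 to 193 with a library left out and 1 without RHAMMB tumours 2 and 4. Members higher in metastases (26 and 28) numbered 12 and 15 at a mean of at least 5 FPKM, a filter that takes most of the other members out of the test. With library weights they numbered 28 and 30, with Gstt2 and Gstt3 gained against RHAMMB tumours and Gstm7 and Gstt3 against N134 tumours. All genes called against RHAMMB tumours (843) numbered 347 at that mean, 1950 with library weights and 504 without RHAMMB tumours 2 and 4, and those called against N134 tumours (1276) numbered 594 at that mean. Replicates share only a number: deviations of same-numbered libraries correlated at -0.0027 to 0.102, and not every pair exceeded 0.1. A fit with the replicate number as a block kept only the numbers found in both groups compared. The first 2 comparisons thus used replicates 1 and 2 alone, so the block and the smaller number of libraries cannot be told apart there. Members higher under the block were 0, 22 and 27 in the 3 comparisons, and all genes called were 0 and 424 in the first 2. Gstm4, Gstt1, Ugt1a5 and Ugt3a1 were the members lost against RHAMMB tumours under the block. The cause of these shifts was not tested. With 3 libraries a group and FPKM in place of counts, the precision of values near 0 is not known.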
